A study of Sus scrofa with 4 samples.

Results

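CD180, CD14, LY96 and MYD88 encode proteins with which immune cells sense or answer to endotoxin, the lipopolysaccharide of Gram-negative bacteria. They were followed here by every array probe whose RefSeq accession belongs to one of these 4 pig genes. That gave 8 probes (1 for CD180, 2 for CD14, 4 for LY96 and 1 for MYD88) of 43597 probes usable on the arrays, or 4 of the 3020 genes that could be named. RNA came from the whole thymus of Minnesota miniature swine, in 2 samples labelled IL2RG+/- (called KO here) and 2 wildtype samples (WT), with 1 array of 1 colour each. IL2RG encodes the common gamma chain, a receptor subunit that several interleukins share, and the KO pigs were made with a nuclease (TALEN) and cloned from edited cells. Only KO pigs that had kept a rudimentary thymus could give thymus RNA, which limits them as a model of the genotype. The age and sex of the pigs behind these arrays are not given in the sources used here. Both genotypes were on both slides. Slide 1 held KO replicate 1 with WT replicate 2, and slide 2 held the other pair.

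Lipopolysaccharide is taken up in serum by LBP and handed to CD14, an anchored protein on monocytes, macrophages and neutrophils. CD14 passes it to LY96 (MD-2), the lipid-binding partner of the receptor TLR4, and TLR4 then signals inside the cell through the adaptor MYD88 and, by another route, through TICAM1 and TICAM2. CD180 (RP105) resembles the outer part of TLR4 but lacks its signalling domain, and it pairs with LY86 (MD-1) as TLR4 pairs with LY96. CD180 is known from B cells, where its ligation drives proliferation, and from macrophages and dendritic cells, where it restrains TLR4.

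Values below are the log2 of the processed signal of a probe minus the 75th percentile of its array, so that 0 is a bright probe at that percentile, and differences are KO minus WT. The standard error (SE) is that of a linear model fitted to all 31963 tested probes with limma. A call needed at least 2-fold and an adjusted p (Benjamini-Hochberg, over all tested probes) below 0.05. Levels of different probes are not compared, since brightness also depends on the probe. With 2 arrays per genotype, a two-sided exact permutation test of 1 probe cannot go below p = 0.333. The study's text gives the KO thymus RNA as that of 2 animals, while for the WT samples the sources used here do not say whether they are separate animals, and p-values measure only the spread between these samples. The targeted gene was lower in the arrays labelled KO, where the brighter IL2RG probe read -3.15 and -3.29 against -0.13 and 0.52 in WT. Over all 2702 genes, each taken by its brightest probe, 12.6% were called lower. All 12 tested thymocyte genes of a marker list of 14 were called lower in KO (median log2 difference -2.58). Yet 11 of them were well above background on all 4 arrays. The epithelial genes EPCAM and CCL25, the latter a chemokine of the thymus, were well above background on all arrays and were not called, while KRT8, a keratin and the remaining tested gene of that list of 9, was higher by 2.37 (SE 0.33, adjusted p = 0.00781 in limma).

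The 4 genes were chosen with the KO against WT contrast known, so their differences are given as a description, without p-values. CD180 had the largest difference of the 4. Its probe read 0.04 and 0.28 in KO against -4.37 and -5.04 in WT. Both KO arrays were thus far above both WT arrays, with a gap of 4.42 between the lowest KO and the highest WT array. The KO mean was 0.16 ± 0.17 (SD, n = 2) and the WT mean -4.71 ± 0.47 (SD, n = 2), a difference of 4.87 (SE 0.28) or 29.2-fold. On slide 1 alone the difference was 5.08 and on slide 2 alone 4.65. Of the 31963 tested probes, 65 had a larger difference, and among 2702 genes taken by their brightest probe CD180 was number 10.

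The WT level of CD180 was close to the floor of the arrays. The raw signal was 29.9 and 21.1 in WT, which is 2.54 and 1.84 times the lowest signal well above background on those arrays, against 785 and 844 in KO. With another background correction, normexp, which adds an offset to every spot, the log2 difference was 3.13 or 8.72-fold, still higher in KO. CD180 has a single named probe, so no second probe could be set beside it.

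CD14, the co-receptor that hands lipopolysaccharide on, was higher in KO at both of its probes. The brighter probe read 1.28 and 1.95 in KO against -0.07 and -0.65 in WT. The dimmer one read -1.36 and -0.67 in KO against -2.69 and -3.18 in WT. In neither probe did the genotypes overlap, and both gave nearly the same difference, 1.98 (SE 0.33) and 1.93 (SE 0.32), or 3.94-fold and 3.80-fold. Under normexp the dimmer probe fell to 1.26, while the brighter one stayed at 1.82.

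LY96, the lipid-binding partner of TLR4, was higher in KO at all 4 probes by a little over 2-fold. The brightest read 2.13 and 2.38 in KO against 1.25 and 0.99 in WT, a difference of 1.13 (SE 0.19). The dimmest read 0.86 and 1.20 in KO against 0.07 and -0.21 in WT, or 2.14-fold, the other 2 probes each gave 1.18, and the smallest gap between the genotypes at any of the 4 was 0.79. These values lie near the 2-fold line, and the dimmest probe fell below it without KO replicate 2 (0.93) or WT replicate 2 (0.96). All 4 fell below it with median scaling of the arrays, to between 0.84 and 0.93. That scaling moved the median difference of all tested probes from -0.06 to -0.32, and all 4 probes stayed above that median.

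MYD88, the adaptor that most Toll-like receptors share, had the smallest difference of the 4 genes. Its probe read -1.30 and -1.32 in KO against -1.67 and -1.37 in WT. The KO arrays were above the WT arrays by a gap of only 0.04, and the 2 WT arrays were further apart than the genotype means. The difference was 0.21 (SE 0.18), or 1.15-fold, and it was -0.05 with each array scaled to its median, so its sign depends on the scaling. On slide 1 it was 0.07 and on slide 2 0.35.

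**Figure D1:**
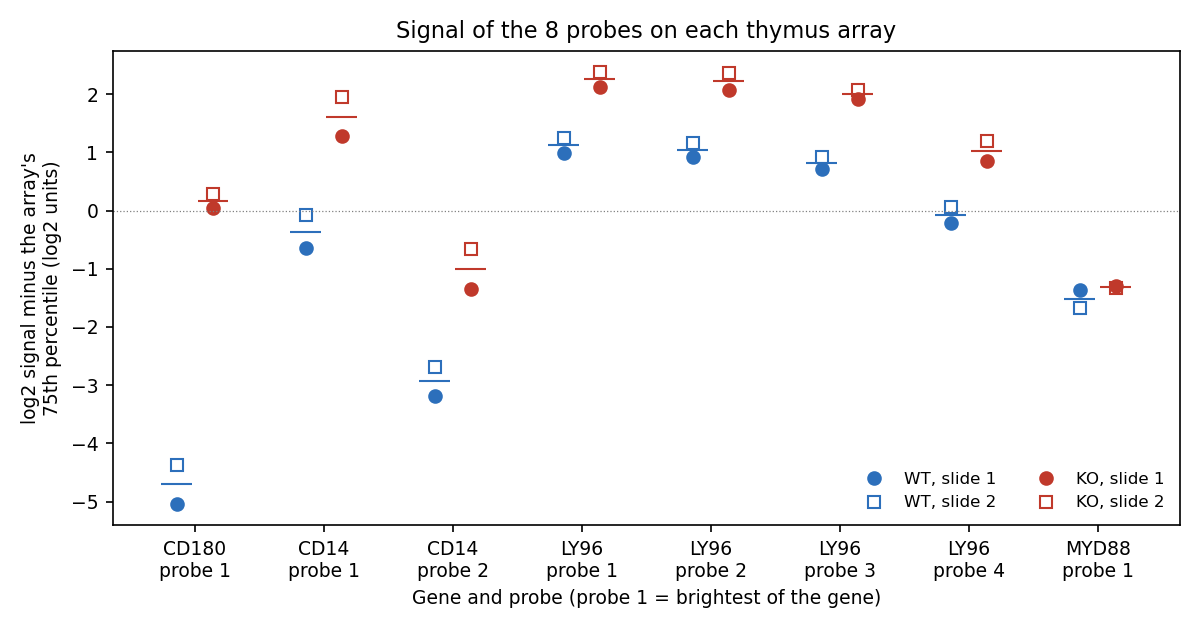
Signal of each of the 8 probes on each array (y axis, log2 signal minus the 75th percentile of the array, in log2 units; x axis, gene and probe, the brightest probe of a gene first), for WT (blue) and KO (red) on slide 1 (filled circles) and slide 2 (open squares), with horizontal lines at the means of 2 arrays. CD180 shows the widest distance, from near -5 in WT to just above 0 in KO, the CD14 and LY96 probes show parallel but smaller shifts, and MYD88 is nearly level.

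Counted together, both KO arrays were above both WT arrays at 8 of the 8 probes, where the share over all tested probes was 37.7%, or 78.7% counting those with both KO arrays below as well. At least 2-fold higher were 7 of the 8. Over all tested probes 21.0% were called higher, 13.0% lower and 34.0% in either direction, shares that also needed the adjusted p. Since the genes were chosen on this contrast, nothing is read from these counts. As the RNA is of whole tissue, more or fewer cells of a type and more or less RNA per cell cannot be told apart in any of these values.

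LY86, the partner of CD180, was called higher. It read -0.43 and 0.01 in KO against -1.20 and -2.29 in WT, a difference of 1.54 (SE 0.42, adjusted p = 0.0414 in limma), or 2.91-fold, against 29.2-fold for CD180. The call of LY86 was lost without either KO array or without WT replicate 2, and with the replicate number as a block. TLR4, the partner of LY96, rose by 2.00 on its brightest probe (0.44 and 0.37 in KO, -1.42 and -1.76 in WT; SE 0.19, adjusted p = 0.00343 in limma), and all 4 of its probes were called, with differences from 1.60 to 2.14. LBP, which brings lipopolysaccharide to CD14 and is made mainly in the liver, was dim on all arrays and was not called (-0.44, SE 0.30, adjusted p = 0.291 in limma). BPI, a neutrophil protein that binds and neutralises lipopolysaccharide, was not well above background on either KO array and was at least 2.54-fold lower there (adjusted p = 0.0261 in limma). That call was lost without KO replicate 2 or WT replicate 1, and under normexp. Its adjusted p comes from the measured signals and not from the bound, and only 1 of the 2 BPI probes was tested.

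The wider pathway was taken from a list of genes by function. That list and the marker lists were drawn up with earlier results of these data known, so their counts are a description only. The pathway list held 53 genes, with the 4 genes above left out. Of these, 36 had a named probe and 35 were tested by their brightest probe. By limma KO exceeded WT for 14 genes and fell short for 2, or 14 of 35 higher where 25.2% of all 2702 genes were, and 2 lower where 12.6% of all genes were. The median log2 difference of the 35 was 0.50, beside -0.00188 over all genes, and it was 0.54 on slide 1 and 0.52 on slide 2. Of the 14 higher calls 7 held whichever array was left out, and neither of the 2 lower calls did. With each array scaled to its median, 11 were higher and 6 lower.

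Genes induced by endotoxin made up most of the increases. In this group 8 of 11 tested genes were higher, none was lower, and the median was 1.28. Among all genes 25.2% were called higher and 12.6% lower. CCL4, a chemokine for monocytes and T cells, read 1.56 and 1.57 in KO against -1.59 and -1.62 in WT, a difference of 3.17 (SE 0.15, adjusted p = 0.00205 in limma). IL10, an anti-inflammatory cytokine, rose by 2.68 and IL1A, an alarm cytokine, by 2.31. The neutrophil chemokine CXCL2 rose by 2.08 and IL6, a cytokine of fever and the acute phase, by 1.61. PTGS2, TNF and CXCL8 were called with differences of 1.28, 1.15 and 1.11, and each lost its call without either KO array, TNF and CXCL8 also without WT replicate 1. TNF lost its call with the slide as a block as well, TNF and CXCL8 under median scaling, and CXCL8, PTGS2 and IL6 under normexp. Only 1 of the 2 tested TNF probes was called. IL1B (0.85), IL12B (0.77) and NOS2 (0.04) did not pass. These cytokine genes also answer to signals other than endotoxin.

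Among 8 intracellular kinases and ubiquitin ligases tested, 1 was higher and none lower, with a median of -0.53. The shares over all genes were 25.2% higher and 12.6% lower. TBK1, a kinase of the interferon route, read 0.05 and -0.17 in KO against -1.52 in both WT arrays, a difference of 1.46 (SE 0.17, adjusted p = 0.00483 in limma). IRAK4, the kinase that MYD88 recruits, had a difference of -0.45 (SE 0.23, adjusted p = 0.17 in limma). TRAF6, the ubiquitin ligase that follows it, had -0.82 and the kinase MAP3K7 -0.92, and both were under 2-fold although their adjusted p values in limma were 0.015 and 0.0142. With each array scaled to its median, TRAF6, MAP3K7 and CHUK, a kinase that frees NF-kB, were called lower, as was the transcription factor FOS. TICAM2, the adaptor that carries TLR4 signals to the interferon route, rose by 1.26 (SE 0.18, adjusted p = 0.008 in limma). Without either KO array, or with each array scaled to its median, that call was lost. TIRAP, TICAM1 and IRAK1 had no named probe.

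Of the 5 transcription factors tested, NFKB1 was higher by 1.27 (SE 0.18, adjusted p = 0.00836 in limma), a call that was lost without either KO array. RELA, IRF3, JUN and FOS were not called. Of the inhibitors, TNFAIP3, which switches NF-kB signalling off, was lower by a log2 difference of -1.02 (SE 0.26, adjusted p = 0.0351 in limma). That call was lost without either KO array or without WT replicate 2, under normexp, and with the replicate number as a block. NFKBIA was not called. HSP90B1, a chaperone that Toll-like receptors need to fold, had 0.96 (SE 0.18, adjusted p = 0.0164 in limma), just under 2-fold, with all 8 of its probes between 0.82 and 1.01. A call of higher was reached by 1 of the 8, and by the brightest probe under normexp. CD36, a scavenger receptor of macrophages, endothelium and fat cells, rose by 2.66 (SE 0.61, adjusted p = 0.026 in limma). Its KO arrays read 3.14 and 4.52 and its WT arrays 1.71 and 0.63, and its call was lost without KO replicate 2 or WT replicate 2.

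**Figure D2:**
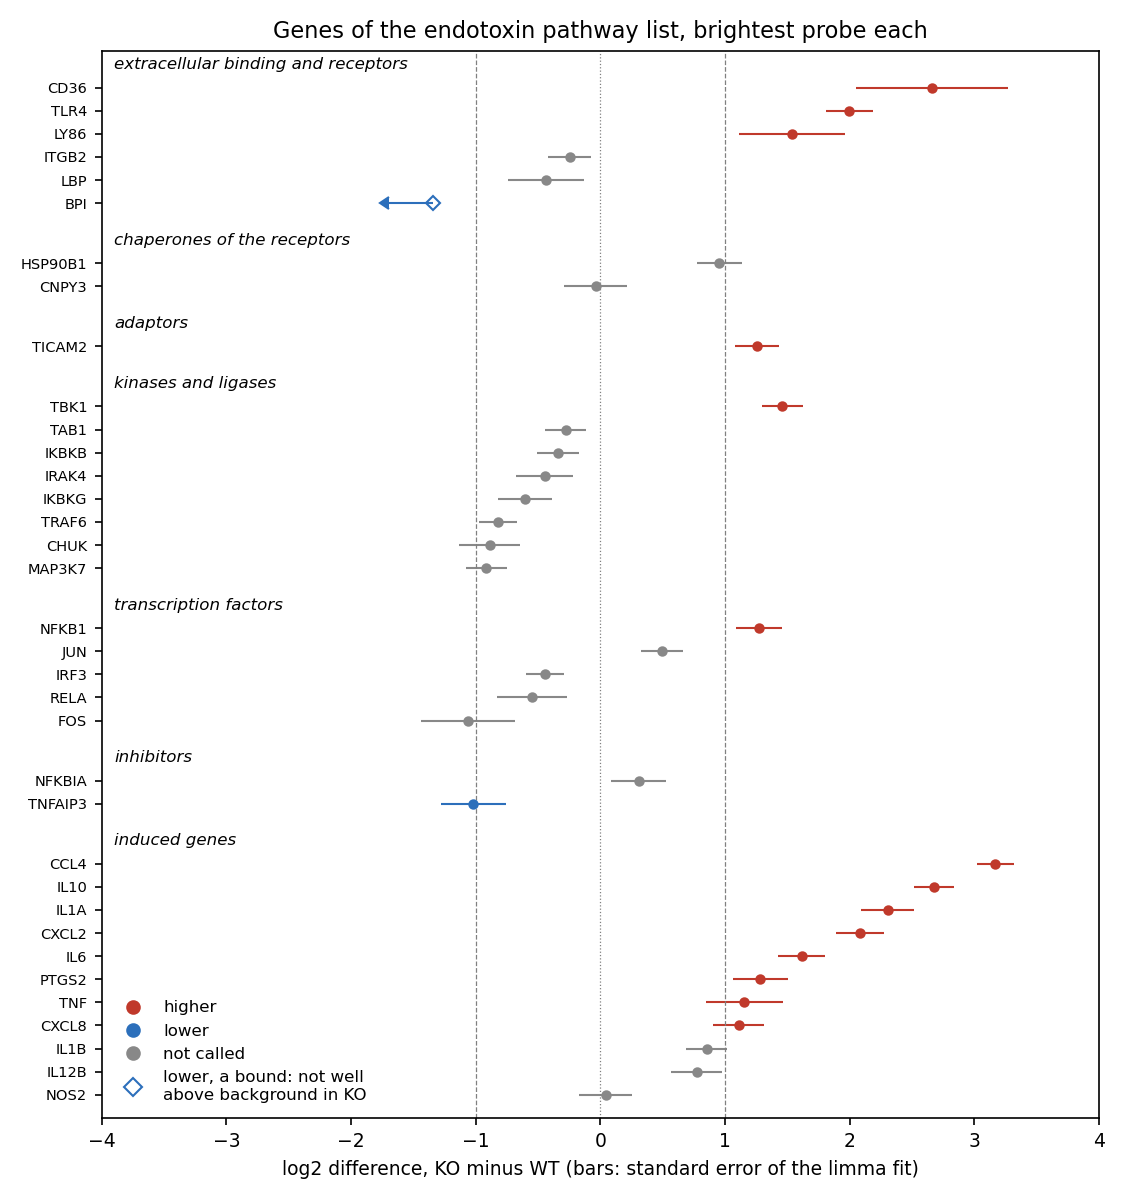
Log2 difference, KO minus WT, of the 35 tested genes of the endotoxin pathway list (x axis, points with bars for the SE of the limma fit; y axis, genes grouped by role), called higher (red), lower (blue) or not called (grey), with dashed lines at 2-fold. The open diamond with an arrow is a bound for BPI, which was not well above background in KO; the induced genes lie mostly to the right and the kinases mostly left of 0, except TBK1.

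CD180 was higher in KO, while the B cell markers CD79A and MS4A1 fell. CD79A, part of the B cell receptor, read -3.58 and -3.78 in KO against -0.16 and -0.25 in WT, a difference of -3.47 (SE 0.17, adjusted p = 0.00205 in limma). MS4A1 (CD20) read -5.59 and -6.03 in KO, where only 1 of 2 arrays was well above background, and -2.07 and -2.65 in WT (-3.45, SE 0.29, adjusted p = 0.00277 in limma). Both calls held whichever array was left out. CD40 and BLNK, which cells other than B cells also express, were higher by 2.10 and 1.43, and BLNK lost its call without either KO array. Thus 4 of the 15 B cell genes considered could be tested, 2 lower and 2 higher, with a median of -1.01. Over all genes 12.6% were called lower and 25.2% higher. The summed level of the list, in units of each array's 75th percentile, was 50.05 to 53.36 in KO and 11.7 to 15.8 in WT. Such a sum depends on how bright each probe is, and it ran opposite to CD79A and MS4A1. In both genotypes it was mostly the CD40 probe, the brightest, at 5.65 and 5.53 in KO and 3.69 and 3.28 in WT. Of the kinases through which CD180 is known to signal in B cells, SYK, which T cells and others also use, was lower by a log2 difference of -2.09 (SE 0.15, adjusted p = 0.00236 in limma). BTK read -2.29 and -1.83 in KO against -3.05 and -4.36 in WT and was not called (1.64, SE 0.49, adjusted p = 0.0513 in limma), though with the slide as a block it was. LYN had no named probe.

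Macrophage markers moved in the direction of CD180 and CD14. Over all 2702 genes 25.2% were called higher and the median was -0.00188. All 10 tested genes of a macrophage list of 15 were called higher in KO, with log2 differences of 1.62 to 3.05 around a median of 2.12. For these genes the medians within slides were 2.19 and 2.28. Their summed level was 233 to 297 in KO and 51.5 to 61.8 in WT, in units of each array's 75th percentile. Such a sum depends on how bright each probe is, and C1QB was the brightest of the 10 on every array. MRC1, the mannose receptor, read 2.03 and 2.33 in KO against -0.53 and -1.22 in WT, a difference of 3.05 (SE 0.29, adjusted p = 0.00348 in limma). The complement genes C1QA, C1QB and C1QC of tissue macrophages rose by 2.39, 2.34 and 2.23, and the scavenger receptor CD163 by 1.96. VSIG4 lost its call without either KO array, and SIGLEC1 and SPI1 lost theirs under normexp. The differences of CD14 (1.98) and TLR4 (2.00) lay near the median of this list, that of LY96 (1.13) lay below its lowest member and that of CD180 (4.87) above its highest. The part of macrophages in these values was not tested.

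**Figure D3:**
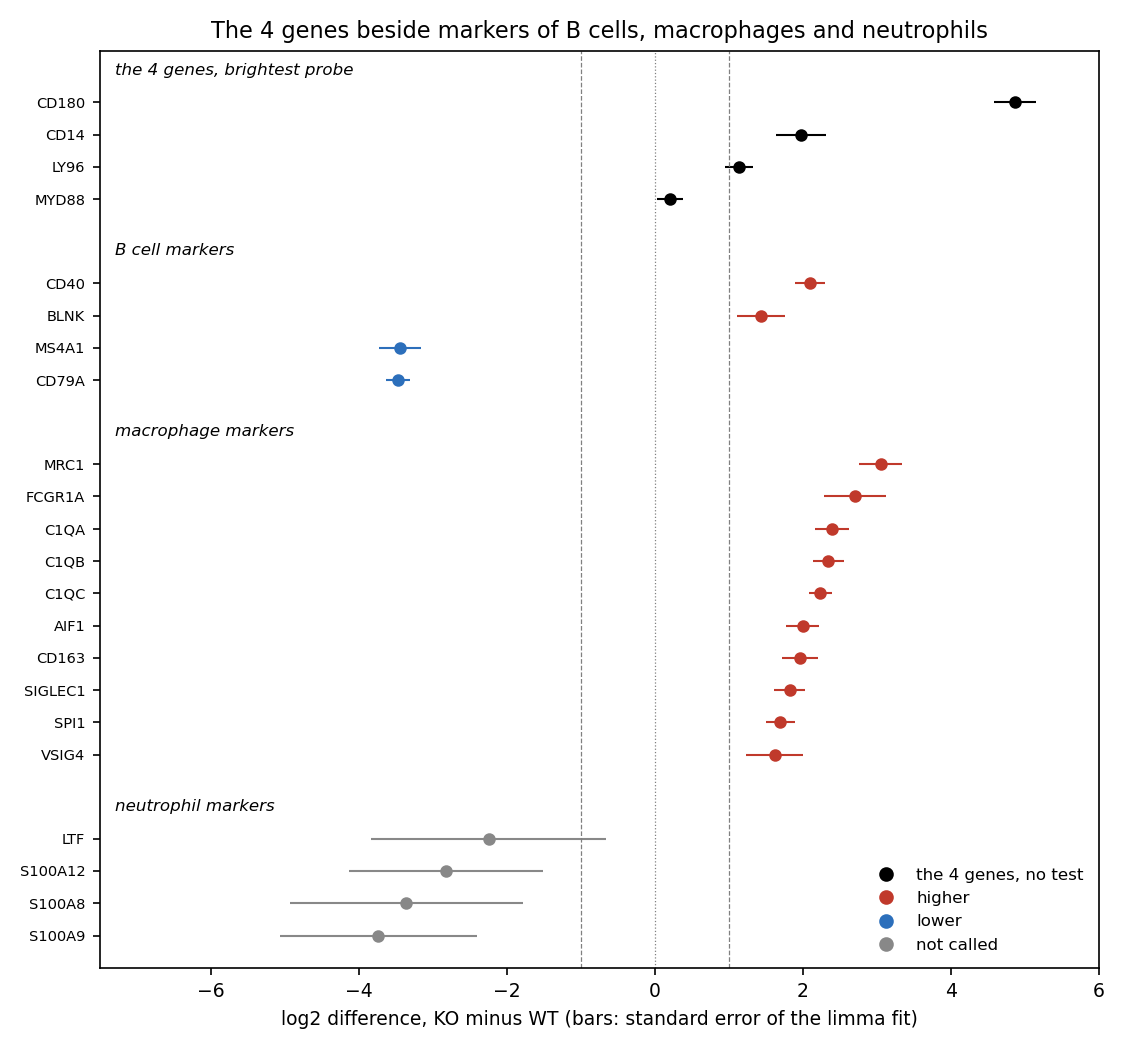
Log2 difference, KO minus WT, of the 4 genes by their brightest probe (black, described without a test) and of markers of B cells, macrophages and neutrophils (x axis, points with bars for the SE of the limma fit; y axis, genes), coloured by call with dashed lines at 2-fold. CD180 lies right of all macrophage markers at 4.87 while CD79A and MS4A1 lie far left; the 4 neutrophil markers lie left of 0 with wide bars and are not called.

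Among dendritic cell genes 3 of 8 could be tested. XCR1, a chemokine receptor of cross-presenting dendritic cells, rose by 1.13 (SE 0.20, adjusted p = 0.0142 in limma), a call that was lost without either KO array, without WT replicate 2, under normexp and with each array scaled to its median. CCR7 was not called (0.48, SE 0.20, adjusted p = 0.117 in limma). The probe found through the synonym CD1A, a CD1 gene that thymocytes also express, was called lower with -5.19. The summed level of the list was 64.8 to 104 in WT and 10.4 to 11.8 in KO. This sum depends on how bright each probe is. In WT it was mostly the CD1A probe, the brightest of the 3 there at 5.89 and 6.60. It ran opposite to the differences of XCR1 and CCR7, and the median difference of the 3 genes was 0.48. The part of dendritic cells in these values was not tested.

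CD14 also varied between samples of the same genotype, in step with the slides. On slide 2 its brighter probe was higher than on slide 1 by 0.67 in KO and by 0.58 in WT, and its dimmer probe by 0.69 and 0.49. CD180 was higher on slide 2 by 0.24 in KO and by 0.66 in WT, and the 4 LY96 probes by 0.16 to 0.34 and 0.21 to 0.28. MYD88 was not, with -0.02 and -0.30. In all 7 of the 8 probes were higher on slide 2 in both genotypes, where 30.0% of all tested probes were. The 7 belong to CD180, CD14 and LY96 only, and probes of 1 gene are not independent, so nothing is read from this count. Of the 10 tested macrophage genes 9 were higher on slide 2 in KO and 9 in WT, with list medians of 0.33 in both. The neutrophil genes S100A8, S100A9, S100A12 and LTF were also higher on slide 2 within each genotype, by 1.58 to 2.40 in KO and by 3.41 to 4.25 in WT. Their summed level was 1.81 to 7.17 in KO and 7.43 to 101 in WT, a sum that also depends on how bright each probe is. In KO against WT none of the 4 was called in limma (adjusted p from 0.0789 to 0.301, with 1 of the 4 at an unadjusted p under 0.05), with differences of -3.74 to -2.25 that oppose that of CD14, although S100A8, S100A9 and S100A12 were called lower with the slide as a block. Each slide held 1 sample of each genotype, so slide and sample cannot be told apart. The part of neutrophils or macrophages in the CD14 signal was not tested. Within both slides CD14 was higher in KO, by 1.93 and 2.03 on the brighter probe.

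**Figure D4:**
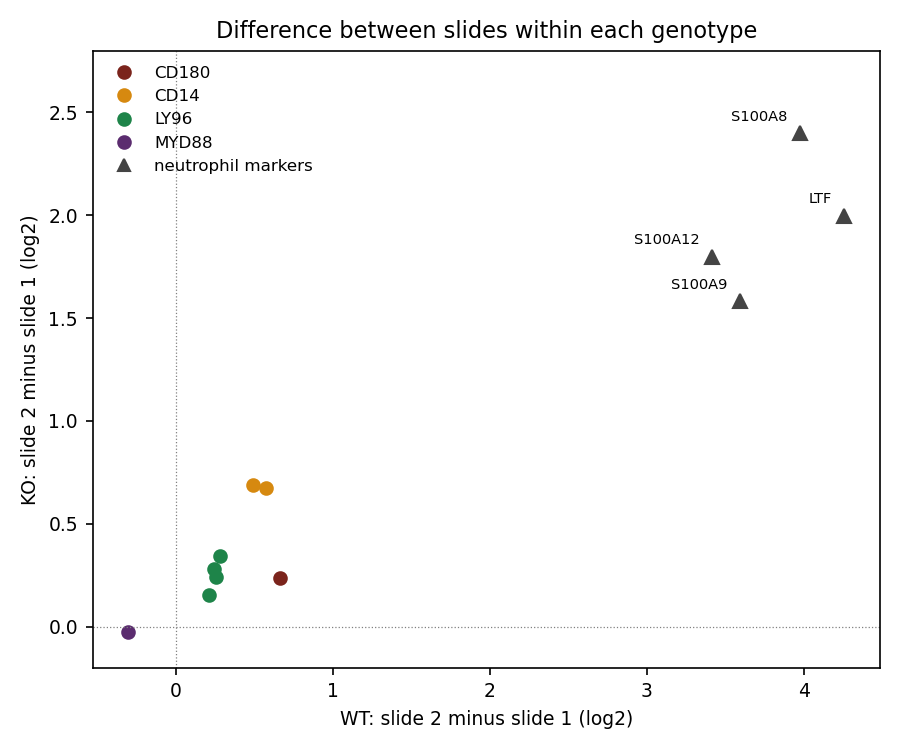
Difference between slide 2 and slide 1 within WT (x axis, log2) and within KO (y axis, log2) for the 8 probes of the 4 genes (circles, coloured by gene) and for 4 neutrophil markers (triangles). All points but MYD88 lie above 0 on both axes, the CD14 probes at 0.49 to 0.69 and the neutrophil markers at 1.58 or more.

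The genes most like each of the 4 in their pattern over the arrays were found by the root mean square distance between mean-centred log2 profiles over 4 arrays, among 2513 other genes. Closest to CD180 were CXCL9, a chemokine induced by interferon gamma (distance 0.09, 5.30 and 5.44 in KO against 0.83 and -0.02 in WT), the tight junction gene CLDN10 (0.13) and the endothelin EDN3 (0.22). Closest to CD14 were IGF1, a growth factor (0.08), ACACA, an enzyme of fatty acid synthesis (0.10), and MYLK, a myosin kinase (0.10). For LY96 they were the TNF receptor TNFRSF1B (0.02), ABAT (0.05) and the protease CTSH (0.05). For MYD88 they were the protease ADAM17 (0.01), LOC100514530 (0.02) and CRH (0.03), all with differences of about 0.2. With 4 arrays in 2 groups, a short distance says little more than that a gene has a similar difference and a similar order of arrays.

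**Figure D5:**
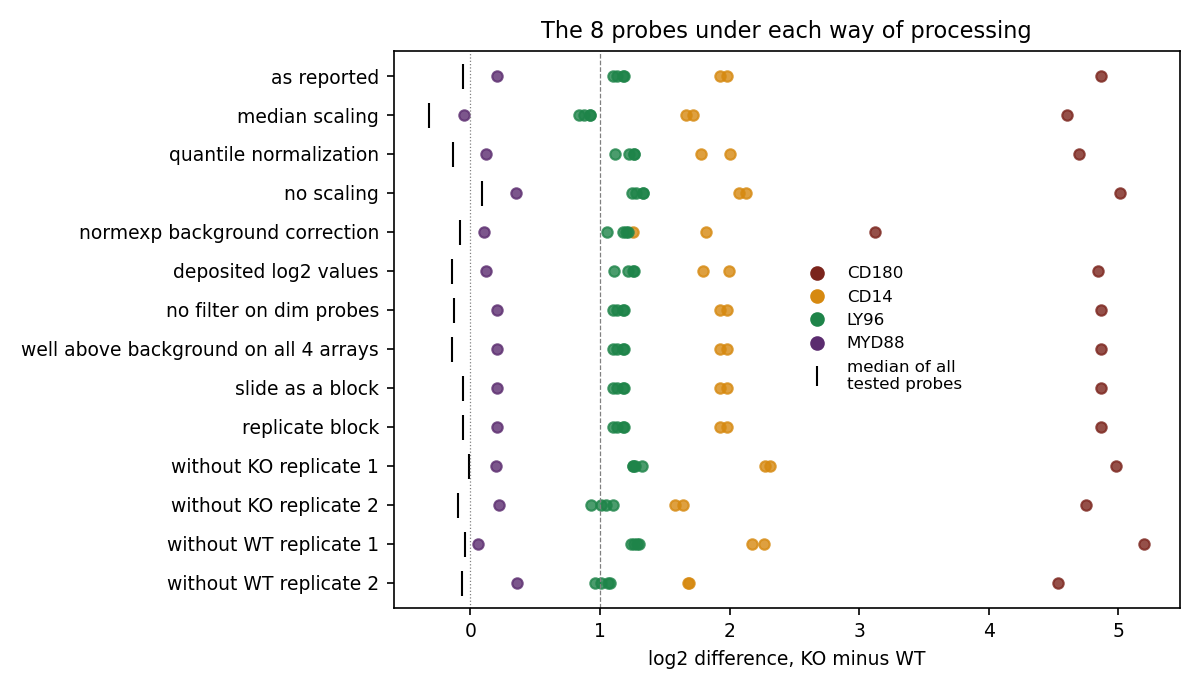
Log2 difference, KO minus WT (x axis), of the 8 probes under each way of processing (y axis), coloured by gene, with the median of all tested probes as black bars and a dashed line at 2-fold. CD180 moves from 4.87 to 3.13 under normexp and otherwise stays at 4.53 or more, and MYD88 stays near 0. All LY96 probes drop below 2-fold with each array scaled to its median, and the dimmest also without KO replicate 2 or WT replicate 2.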

How the data were processed

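Thymus RNA of 2 KO and 2 WT samples was hybridised in 1 colour (Cy3) to Agilent porcine arrays. The intensity values, spot signals after background subtraction and removal of spatial trends with no normalization between arrays, were deposited by the authors as output of Agilent Feature Extraction, version 11.0.1.1 per the labels' processing notes. A second table, of log2 values, was deposited too, with 27970 probes used here (data were analysed in GeneSpring per the methods). All its columns share a median of 8.49, and they track the scanner signal on the log2 scale (r 0.9998 or more), in the same direction, with the normalization not stated. The methods mention Cy-3 and Cy-5, whereas the files hold 1 channel.

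Here control spots and outlier spots (4 to 8 per array) were left out, which removed 6 of 43603 probes. No spot was saturated. The 75th percentile of the processed signal was 621 to 762, and 67.9% to 74.6% of probes were well above background. After log2 transformation each array was shifted by its own 75th percentile and repeated spots were averaged per probe. Probes had to be well above background on both KO or both WT arrays. The 31963 that were so were fitted with lmFit and eBayes of limma 3.58.1 in R 4.3.3. This procedure was also run on simulated data with independent noise on each array and no slide effect. Nothing about the calls is read from that run. Of the tested probes 34.0% were called, and 61.7% of the calls were higher in KO, or 47.8% with each array scaled to its median. Genes were named by matching accessions to the RefSeq table of Sscrofa11.1, which named 6684 of 7108 probes with a RefSeq accession. Coordinates were not used. The brightest probe stands for a gene. For a probe that neither array of a genotype measured well above background, the fold is a bound: on each array the higher of its own signal and the dimmest signal that passed was taken. The number of arrays limits the precision.

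The 4 genes and the lists were chosen with earlier results of these data known. A B cell list gene is not reported here. Named genes were all probes of the 4 genes, their direct partners, called genes of the pathway list, defining markers of the cell lists, and the 3 genes closest in pattern to each of the 4. The alternatives were other scalings, normexp (offset 50, on the median spot signal, with quantile normalization), the deposited log2 values, other filters, a block for the slide or for the replicate number, each array left out, calls by adjusted p alone or by any probe of a gene, and the methods' t-test. Python 3.11.15 with pandas 2.3.3 and matplotlib 3.10.9 handled tables and plots.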

Additional observations from a re-analysis of the deposited data

How the results depend on the processing

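Of the 104 values of the 8 probes under an alternative, 96 moved by less than 1 SD between replicates, taking the larger SD of the genotypes. For many of them this was fixed in advance. The other filters and the blocks cannot change the difference of a probe, and leaving out an array must move it by less than that SD. Only the other scalings, normexp and the deposited log2 values could move a value further. The 8 that moved further were those of CD180 and of the dimmer CD14 probe under normexp, of MYD88 and the 4 LY96 probes under median scaling, and of 1 LY96 probe without scaling. At least 2-fold were 7 of the 8 probes, 3 with median scaling, and 6 to 7 with an array left out.

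The number of probes called, 10883, was 6429 under normexp, and in the methods' t-test 8611 without adjustment, 1505 after Benjamini-Hochberg and 0 after Bonferroni. It was 6095 to 12714 with an array left out, lowest without KO replicate 2 and 6430 without KO replicate 1. Of the endotoxin pathway list 7 to 13 genes were called higher with an array left out. The 2 lower calls were 6 with median scaling and 0 under normexp. They were 1 with quantile normalization, without scaling, without a filter, with probes well above background on all 4 arrays and with the replicate block, and 0 to 4 with an array left out. The B cell list had 1 to 2 higher calls with an array left out. Its 2 lower calls were 1 in the deposited log2 values and with probes well above background on all 4 arrays, which leave out MS4A1. The macrophage list kept 8 to 10 of 10 calls and had none lower under any alternative. The cause of the other changes was not tested.

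With the replicate number as a block 10669 probes were called, and with the slide as a block 11126. Across probes, the deviations of arrays on the same slide had an r of 0.29. With 2 arrays per genotype, the r of arrays with the same number is that value with its sign reversed, -0.29, and not a second result. The slide of each array was taken from its barcode, not from this r. The single CD180 probe, its WT level near background and 2 arrays per genotype limit the precision of its fold.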
